A study of Mus musculus with 12 samples.

Results

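Respiratory complex I is built in mammals from subunits encoded in the nucleus and subunits encoded in mitochondrial DNA, and the genes described here are the nuclear ones. They were taken as every protein-coding gene of GENCODE release M21 whose symbol is Ndufa, Ndufb, Ndufc, Ndufs, Ndufv or Ndufab followed by a number, which leaves out the Ndufaf assembly factors. This gave 37 genes out of 54392 in the deposited table. All 37 were among the 15073 genes that passed a filter on low values (3 or more of the 12 libraries with a normalized count of 10 or higher). The RNA came from NIH-3T3, a line of immortalised fibroblasts first grown from mouse embryos, and was sequenced as total RNA. There are 4 groups of 3 libraries each: KO1, KO2 and KO3, in which Crls1 was targeted, and cells labelled Crls1WT (WT). Crls1 encodes cardiolipin synthase, which makes the phospholipid cardiolipin of the inner mitochondrial membrane. Per the labels' protocols, each KO line grew from 1 sorted cell after transfection with a Cas9 and guide RNA plasmid, so a difference between a line and WT can belong to the clone as well as to the gene. All groups were grown with glucose, glutamine, pyruvate and uridine, a medium in which cells can live with little respiration. Whether the libraries of a group came from separate cultures is not given in the labels, so the p-values measure only the spread between these libraries, which may be technical.

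Complex I oxidises NADH in the mitochondrial matrix, passes the electrons along a chain of iron-sulphur clusters to ubiquinone, and pumps protons across the inner membrane. It is assembled from modules: the N module takes electrons from NADH, the Q module reduces ubiquinone, and the ND1, ND2, ND4 and ND5 modules form the membrane arm around the mitochondrially encoded subunits. A few nuclear subunits are the catalytic core and the rest are accessory subunits that surround it. Cardiolipin binds to the membrane arm of the complex.

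For these genes WT replicate 1 lay away from its fellow WT libraries, and the counts of called genes, and the values of genes that hang on it, are therefore given with and without it. The summed normalized counts of the 37 genes were 71189.3, 70153.1 and 71929.4 in KO1, 81666.5, 77710.7 and 73029.0 in KO2, 79071.5, 72447.8 and 81534.8 in KO3, and 56798.3, 73891.7 and 73445.3 in WT replicates 1, 2 and 3. WT replicate 1 held the lowest value of the 12 libraries for 33 of the 37 genes, against 18.0% of all genes tested. Relative to the mean of the other WT libraries, its log2 values differed by a median of -0.49 over the 37 genes and of 0.03 over all genes tested, and it lay below both of them for 35 of the 37. Shorter genes in general were low in it. For protein-coding genes with less than 1000 bases of exon the median log2 difference was -0.46, for 1000 to 2000 bases -0.31, for 2000 to 4000 bases -0.06 and for longer genes 0.12. The 37 genes have a median exon length of 1569 bases, against 4484 for all protein-coding genes tested, but those among them with at least 4000 bases (5 genes) also had a median difference of -0.72. The part of gene length in the position of this library was not tested.

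**Figure D1:**
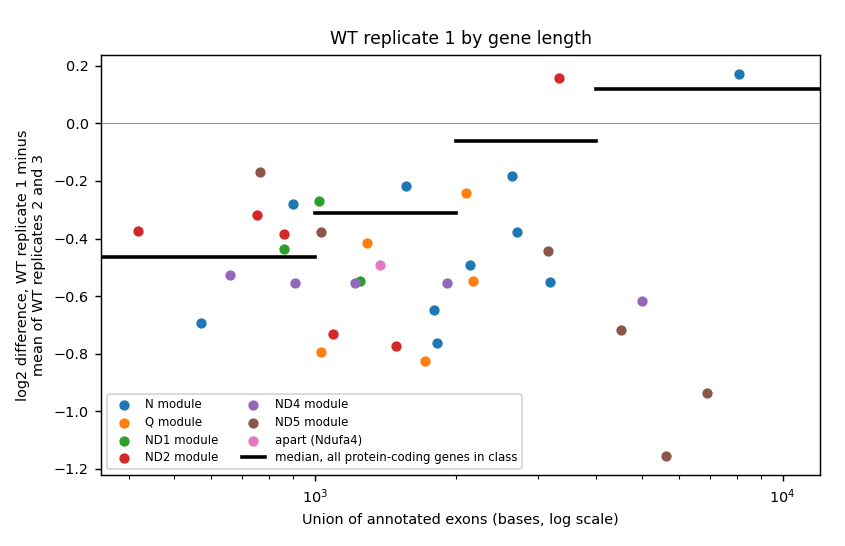
The log2 difference of WT replicate 1 from the mean of WT replicates 2 and 3 (y axis) against the length of each gene's annotated exons in bases (x axis, log scale), with 1 point for each of 36 complex I subunit genes, coloured by module. Black lines are the medians of all protein-coding genes tested in each length class; nearly all the points lie below 0, and many of the longer genes lie far below the line of their class.

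Depth was similar across groups, with 32929242 to 42211807 reads per library recovered from the deposited values, of which the 37 genes took 0.147% in WT replicate 1 and 0.195% to 0.236% in the other 11 libraries. Crls1 RNA was lower in all clones, at 208.7, 209.0 and 213.5 normalized counts in KO1, 335.9, 338.3 and 373.6 in KO2 and 362.8, 372.0 and 408.1 in KO3, against 739.7, 872.8 and 833.6 in WT. The fibroblast genes checked were abundant in every library (summed normalized counts of 776473.2 to 902540.0 in the clones and 802002.9 to 885068.3 in WT), although Lum and Dcn were at or near 0. Markers of other cell types summed to 766.3 to 833.2 in KO1, 497.3 to 534.5 in KO2 and 500.2 to 551.5 in KO3, against 230.5 to 289.9 in WT, with Myod1 at 0 throughout. These sums hold genes that moved apart. Cdh1 (log2 fold changes 4.24, 3.33 and 4.06) and Des (1.06, 1.48 and 0.91) were higher in KO1, KO2 and KO3. Krt8 was lower in all clones (-3.91, -3.04 and -4.17). Ptprc, Cdh5 and Pecam1 were called higher in KO1 alone (4.69 for Ptprc and 1.32 for Pecam1). Cd68 was not called in any clone. Of the fibroblast genes, Col3a1 was higher in all clones (5.72, 2.56 and 4.62). Col1a2 (-0.37, -0.31 and -0.41) and Pdgfrb (-0.49, -0.26 and -0.50) were lower in all. The marker fold changes given here were all called by limma. Their part in the results below was not tested. In bulk libraries, a change in a share of the cells and a change in the RNA per cell cannot be told apart.

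Set against all 3 WT libraries, the complex I genes that changed mostly rose, and few fell. A gene is said to have risen or fallen, or to be called, where limma's moderated test gave a Benjamini-Hochberg adjusted p below 0.05 over all 15073 genes, and fold changes are differences of log2(normalized count + 1). In KO1, 6 genes rose and 0 fell, in a comparison where 52.3% of all genes tested were called (26.9% higher and 25.4% lower). In KO2, 14 rose and 2 fell, where 60.4% of all genes were called (29.9% higher and 30.5% lower). In KO3, 12 rose and 1 fell, where 54.1% of all genes were called (26.8% higher and 27.3% lower). The called genes thus make up 16.2%, 43.2% and 35.1% of the 37 in KO1, KO2 and KO3, below the share among all genes each time. The median log2 fold change of the 37 genes was 0.11 in KO1, 0.25 in KO2 and 0.17 in KO3, and that of all genes tested was 0.02, 0.00 and 0.00. The authors' deposited tables hold the same numbers of calls for these genes (6, 16 and 13).

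With WT replicate 1 left out, the excess of rises was smaller or absent. In KO1, 5 genes rose and 7 fell (all genes: 27.5% higher, 25.5% lower). In KO2, 12 rose and 5 fell (30.5% higher, 30.6% lower). In KO3, 11 rose and 6 fell (27.6% higher, 27.9% lower). The median log2 fold change of the 37 genes became -0.05 in KO1, 0.08 in KO2 and 0.02 in KO3. Of the calls made with all libraries, 5 of 6 in KO1, 14 of 16 in KO2 and 11 of 13 in KO3 were made again in the same direction, and the additional calls were all falls: 7 in KO1, 3 in KO2 and 6 in KO3. The comparisons share the WT libraries, so WT replicate 1 moves all 3 together.

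**Figure D2:**
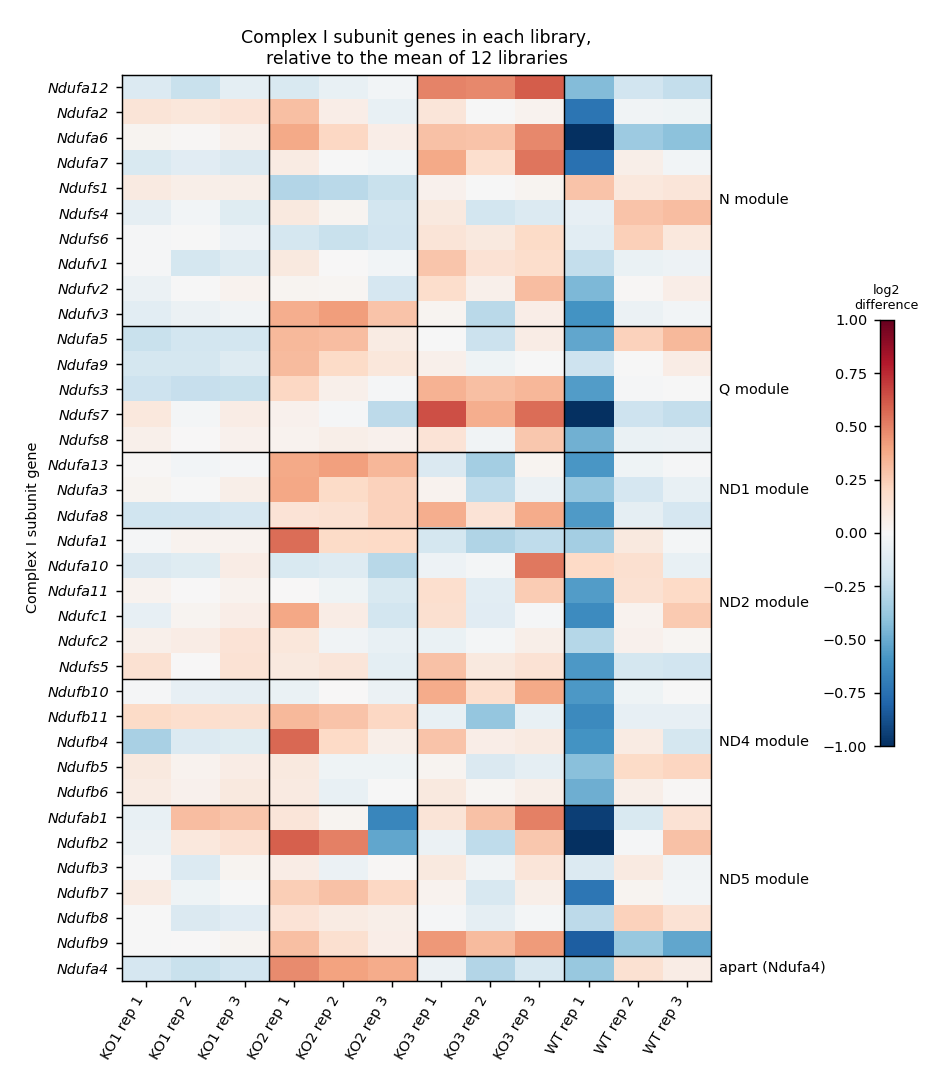
Each row is 1 of 36 complex I subunit genes, grouped by module, and each column is 1 library, with the KO1, KO2 and KO3 libraries left of the WT libraries. Colour is the log2 difference from the gene's mean over the 12 libraries, on a scale that ends at -1 and 1; the column of WT replicate 1 is blue almost throughout, while WT replicates 2 and 3 are close to the clones for most genes.

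Ndufa6, Ndufb9 and Ndufs5 rose in all 3 clones, both with and without WT replicate 1. Of all genes tested, 12.9% rose in all 3 clones (13.4% without that library). None of the 37 fell in all 3 clones when all libraries were used, where 13.3% of all genes tested did. Ndufa6 and Ndufb9 belong to the same protein family, whose members carry the LYR motif, and each anchors a copy of the acyl carrier protein Ndufab1 to the complex, Ndufa6 in the N module and Ndufb9 at the far end of the membrane arm. Ndufs5 is an accessory subunit on the intermembrane-space face of the ND2 module.

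Ndufa6 (ENSMUSG00000022450.6, chr15:82350140-82354322 on the minus strand, GRCm38) had 1163, 1147 and 1181 normalized counts in KO1, 1480, 1318 and 1191 in KO2, and 1398, 1393 and 1589 in KO3, against 557.4, 888.4 and 858.9 in WT. Every clone library lay above every WT library. The log2 fold change was 0.63 ± 0.15 in KO1, 0.82 ± 0.15 in KO2 and 0.95 ± 0.15 in KO3 (SE; limma adjusted p = 0.00335, 0.000416 and 0.000147). It was 0.41, 0.60 and 0.74 without WT replicate 1 (limma adjusted p = 0.00162, 7.51e-05 and 1.63e-05).

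Ndufb9 (ENSMUSG00000022354.4, chr15:58933756-58939488, plus strand) had 2754, 2769 and 2811 normalized counts in KO1, 3413, 3089 and 2892 in KO2, and 3734, 3449 and 3712 in KO3, against 1558, 2125 and 1929 in WT. Here too no clone library overlapped the WT libraries. Its log2 fold change was 0.58 ± 0.10 in KO1, 0.75 ± 0.10 in KO2 and 0.97 ± 0.10 in KO3 (SE; limma adjusted p = 0.000293, 2.67e-05 and 3.49e-06), and 0.46, 0.63 and 0.84 without WT replicate 1. The protein-coding gene Gm49356 shares 201 bases of its exons with Ndufb9 on the same strand, but it had a mean of only 16.2 normalized counts over the 12 libraries, against 2853.0 for Ndufb9.

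Ndufs5 (ENSMUSG00000028648.13, chr4:123712710-123718202, minus strand) had 1060, 956.2 and 1054 normalized counts in KO1, 1023, 1038 and 895.0 in KO2, and 1170, 1020 and 1054 in KO3, against 642.1, 843.9 and 834.5 in WT. The groups did not overlap, and the change was smaller than for the other genes of the trio. Ndufs5 had a log2 fold change of 0.41 ± 0.11 in KO1, 0.36 ± 0.11 in KO2 and 0.49 ± 0.11 in KO3 (SE; limma adjusted p = 0.00609, 0.0117 and 0.00184), and 0.28, 0.23 and 0.36 without WT replicate 1. A processed pseudogene, BC002163, shares 26.5% of the 31-base stretches of Ndufs5 transcripts and had a mean of 421.0 normalized counts, so reads may be split between them. With both summed, the log2 fold changes were 0.47, 0.42 and 0.61, all called.

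**Figure D3:**
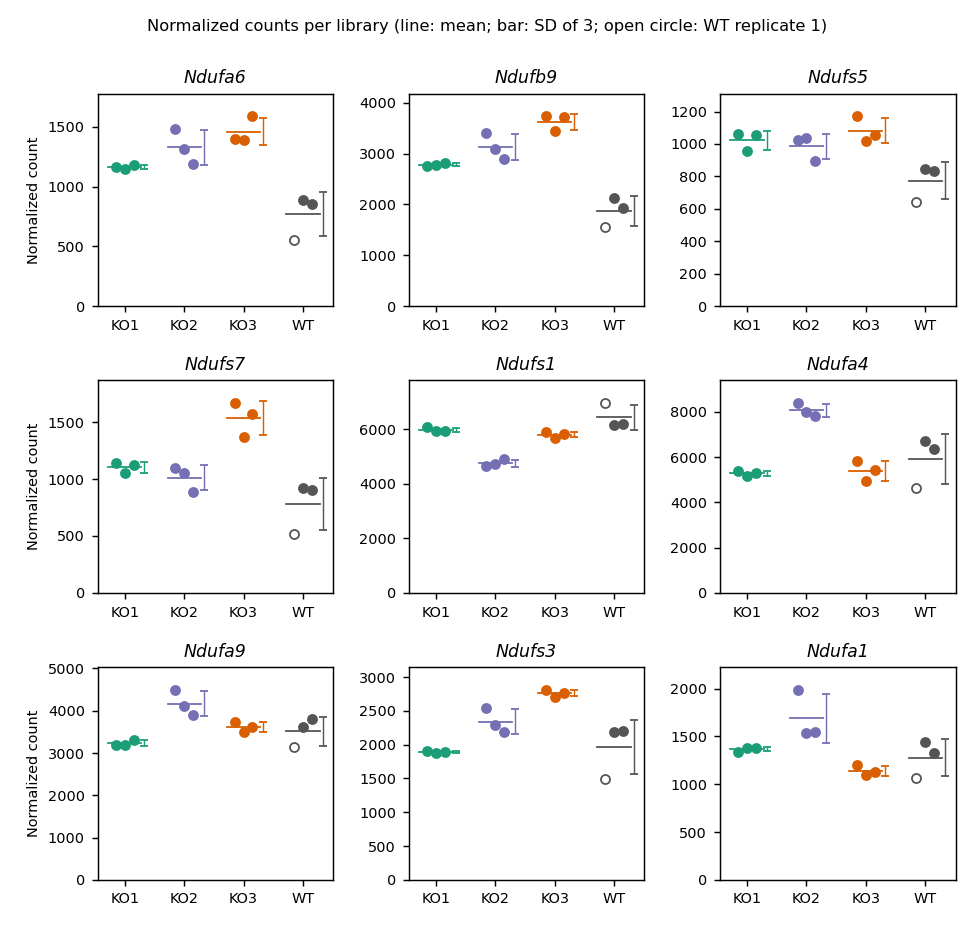
Normalized counts (y axis) in each library of KO1, KO2, KO3 and WT for 9 complex I subunit genes, with 1 point per library, a line at the mean and a bar of the SD of 3. The open circle is WT replicate 1, which is the lowest library for all of them but Ndufs1, where it is the highest; Ndufa6, Ndufb9 and Ndufs5 show no overlap between any clone and WT.

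The sequences before the start of 2 of these genes are shown since they carry letters of motifs known from promoters of respiratory genes. They are the 250 bases upstream of the RefSeq start (RefSeq promoter table, GRCm38.p6), on the minus strand, read 5′ to 3′. Capitals mark GCATGCGC, the reverse complement of the NRF1 motif GCGCATGC, 83 bases before the start of Ndufa6 (chr15:82354292-82354541), and TGACCTT, the reverse complement of the motif AAGGTCA of oestrogen-related receptors (ERR), 228 bases before the start of Ndufs5 (chr4:123718187-123718436).
Ndufa6: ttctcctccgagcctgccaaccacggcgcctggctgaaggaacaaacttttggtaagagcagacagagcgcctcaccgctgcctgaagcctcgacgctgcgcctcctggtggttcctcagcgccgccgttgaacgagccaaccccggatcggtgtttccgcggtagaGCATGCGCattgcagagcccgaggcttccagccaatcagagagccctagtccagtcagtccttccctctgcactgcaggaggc
Ndufs5: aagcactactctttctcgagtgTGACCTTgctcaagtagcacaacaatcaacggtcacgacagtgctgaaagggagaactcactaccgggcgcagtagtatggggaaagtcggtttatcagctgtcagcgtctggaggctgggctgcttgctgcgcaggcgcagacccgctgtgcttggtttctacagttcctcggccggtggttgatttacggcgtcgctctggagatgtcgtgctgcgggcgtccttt

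The RefSeq table holds 35 windows of 300 bases (250 before to 50 after the start) for 33 of the 37 genes, among 32851 windows of all genes. Exact matches on either strand were counted for 4 motifs. GCGCATGC (NRF1) was in 3 of the 35 windows (8.6%; Ndufa6, Ndufa8 and Ndufa11, which holds overlapping matches on both strands) and in 2.71% of all windows. CCGGAAG (ETS factors, including GABP) was in 4 (11.4%; all windows 8.86%), and AAGGTCA (ERR) in 3 (8.6%; Ndufb2, Ndufb4 and Ndufs5; all windows 4.72%). AAGATGGCG (YY1) was in 5 (14.3%; Ndufa9, Ndufc1, Ndufs4, Ndufs6 and Ndufs7; all windows 1.40%), each time after the start, at bases 23 to 36. The genes with a YY1 match moved differently from each other: Ndufs7 rose in KO1 and KO3, Ndufs6 fell in KO2, Ndufa9 rose in KO2, and Ndufs4 and Ndufc1 were not called in any clone. The genes with an NRF1 or ERR match also differed. With all libraries, Ndufa6 and Ndufs5 rose in all clones, Ndufa8 in KO2 and KO3 and Ndufb4 in KO2, while Ndufa11 and Ndufb2 were not called. No match to any of the 4 motifs was found for Ndufb9, which rose in all clones. A match is a description of letters, not a measured binding site.

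Among the 10 genes of the N module, KO1 had 2 rises (Ndufa2 and Ndufa6), KO2 had 3 rises and 2 falls, and KO3 had 5 rises and 1 fall. The counts were 1 up and 2 down in KO1, 2 up and 3 down in KO2, and 4 up and 1 down in KO3 without WT replicate 1. Apart from Ndufa6, the clearest change was that of Ndufa12, an accessory subunit at the junction with the Q module, in KO3. It had 1768, 1666 and 1817 normalized counts in KO1, 1749, 1851 and 1905 in KO2, and 2739, 2707 and 2966 in KO3, against 1439, 1705 and 1646 in WT. The KO3 libraries lay far above all others. The log2 fold change in KO3 was 0.81 ± 0.07 (SE; limma adjusted p = 9.36e-07), and 0.74 without WT replicate 1. In KO2 Ndufa12 was called at 0.20 (limma adjusted p = 0.0247), but not without WT replicate 1 (0.13, adjusted p = 0.0798), KO2 replicate 2 (adjusted p = 0.0651) or KO2 replicate 3 (adjusted p = 0.0798).

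The catalytic subunits of the N module went different ways. Ndufv1, which binds NADH and the flavin that takes its electrons, was called in KO3 alone (log2 fold change 0.31 ± 0.07, SE; limma adjusted p = 0.00152), with 5124 ± 244.5 normalized counts in KO3 and 4124 ± 297 in WT (SD, n = 3 each). Ndufv2, an iron-sulphur subunit beside it, was called in KO3 at 0.30 (limma adjusted p = 0.0493), a call lost without WT replicate 1 (0.14, adjusted p = 0.164), KO3 replicate 1 (adjusted p = 0.0964) or KO3 replicate 3 (adjusted p = 0.167). Ndufs1, the largest subunit, with several iron-sulphur clusters, had the strongest fall of the 37 genes in KO2.

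Ndufs1 (chr1:63143596-63176833) had 6074, 5954 and 5952 normalized counts in KO1, 4653, 4730 and 4908 in KO2, and 5892, 5704 and 5834 in KO3, against 6963, 6147 and 6211 in WT. It was one of 2 genes, with Ndufa10, in which WT replicate 1 was above both other WT libraries. The KO2 libraries lay below all the others, and no clone library overlapped WT. Ndufs1 differed from WT by a log2 fold change of -0.43 ± 0.05 in KO2 (SE; limma adjusted p = 1.4e-05; -0.38 without WT replicate 1), -0.15 ± 0.05 in KO3 (adjusted p = 0.0304) and -0.10 ± 0.05 in KO1 (adjusted p = 0.12). The KO3 call was lost without WT replicate 1 (-0.09, adjusted p = 0.0746) and without each KO3 library in turn (adjusted p = 0.0535, 0.0863 and 0.0587).

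Of the accessory subunits of the N module, Ndufv3 rose in KO2 (log2 fold change 0.58, limma adjusted p = 0.00246; 0.40 without WT replicate 1), Ndufa7 rose in KO3 (0.60, adjusted p = 0.00888; 0.35 without it), and Ndufs6, a zinc-binding subunit, fell in KO2 (-0.28, adjusted p = 0.0105; -0.37 without it). Ndufa2, which has a thioredoxin-like fold, was called in KO1 at 0.40 (limma adjusted p = 0.0496), but not without WT replicate 1 (0.16, adjusted p = 0.138) or any 1 KO1 library (adjusted p = 0.0952 to 0.105). Ndufs4, whose loss causes a fatal brain disease in mice, had 1299, 1356 and 1271 normalized counts in KO1, 1478, 1403 and 1212 in KO2, and 1479, 1214 and 1252 in KO3, against 1305, 1684 and 1706 in WT. It was not called with all libraries (log2 fold changes -0.25, -0.19 and -0.25; limma adjusted p = 0.0818, 0.157 and 0.0817). Without WT replicate 1 it was the only one of the 37 called lower in all 3 clones (-0.37, -0.32 and -0.37; adjusted p = 0.00536, 0.0113 and 0.00518), where 13.4% of all genes were. With the median of the 20 nearest genes on the chromosome subtracted, its values were 0.13, 0.27 and 0.23, and with WT replicate 1 left out as well 0.04, 0.17 and 0.14, none called.

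In the Q module, with the junction subunit Ndufa9, 1 of 6 genes rose in KO1, 1 in KO2 and 3 in KO3, and 0 fell. Leaving out WT replicate 1, the counts were 1 up and 3 down in KO1, 1 up in KO2, and 3 up and 1 down in KO3. Ndufs7 carries the last iron-sulphur cluster before ubiquinone and showed the largest rise of the 37 genes in KO3. It had 1142, 1050 and 1121 normalized counts in KO1, 1094, 1054 and 888.8 in KO2, and 1665, 1372 and 1569 in KO3, against 513.9, 922.5 and 899.5 in WT. KO1 and KO3 lay above WT without overlap, while KO2 overlapped WT.

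The log2 fold change of Ndufs7 was 1.02 ± 0.18 in KO3 (SE; limma adjusted p = 0.000434; 0.75 without WT replicate 1), 0.55 ± 0.18 in KO1 (adjusted p = 0.0228; 0.28, adjusted p = 0.0307 without it) and 0.42 ± 0.18 in KO2 (adjusted p = 0.0624). The KO1 call was lost without KO1 replicate 1 (adjusted p = 0.0654) or KO1 replicate 3 (adjusted p = 0.0596). In KO2, leaving out WT replicate 2 (adjusted p = 0.0228), WT replicate 3 (adjusted p = 0.0287) or KO2 replicate 3 (adjusted p = 0.0486) made it a call.

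Ndufs3, a core subunit of the same module, had 1909, 1881 and 1891 normalized counts in KO1, 2547, 2286 and 2183 in KO2, and 2808, 2713 and 2771 in KO3, against 1498, 2181 and 2199 in WT. It rose in KO3 (log2 fold change 0.52 ± 0.12, SE; limma adjusted p = 0.00275; 0.34 without WT replicate 1). In KO1 it was not called with all libraries (-0.03, adjusted p = 0.866) and was called lower without WT replicate 1 (-0.21, adjusted p = 0.0105). Ndufs8, another iron-sulphur subunit, rose in KO3 (0.32, adjusted p = 0.0184; 0.19 without WT replicate 1), a call lost without KO3 replicate 3 (0.25, adjusted p = 0.0827).

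Ndufa9 had 3200, 3195 and 3306 normalized counts in KO1, 4488, 4117 and 3899 in KO2, and 3739, 3504 and 3607 in KO3, against 3132, 3609 and 3793 in WT. It rose in KO2 (log2 fold change 0.25 ± 0.07, SE; limma adjusted p = 0.0096; 0.17 without WT replicate 1). In KO1 it was at -0.11 (adjusted p = 0.203), and at -0.19 (adjusted p = 0.0145) without that library. Ndufa5, an accessory subunit, had log2 fold changes of -0.21, 0.22 and -0.06, none called. Without WT replicate 1 it was lower in KO1 (-0.47, limma adjusted p = 0.000816) and KO3 (-0.33, adjusted p = 0.00846). Its WT libraries read 1200, 2014 and 2150 normalized counts.

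All 3 genes of the ND1 module rose in KO2, with and without WT replicate 1 (29.9% and 30.5% of all genes tested rose). Ndufa13, also known for a part in interferon and retinoid-induced cell death, averaged 2792 ± 80.3 normalized counts in KO2 and 1887 ± 386 in WT (SD, n = 3 each; log2 fold change 0.59, limma adjusted p = 0.00177; 0.40 without WT replicate 1). Ndufa3 changed by 0.48 (adjusted p = 0.000799; 0.39 without it) and Ndufa8, a cysteine-rich subunit of the intermembrane space, by 0.45 (adjusted p = 0.00302; 0.30 without it). Ndufa8 also rose in KO3 (0.56, adjusted p = 0.000713; 0.42 without it). None of the 3 was called in KO1, where the log2 fold changes were 0.09 to 0.24. With neighbours on the chromosome subtracted, Ndufa8 was not called in KO2 (0.18, limma adjusted p = 0.243). With WT replicate 1 left out as well, Ndufa13 was not called in KO2 either (0.16, adjusted p = 0.149), and Ndufa3 was (0.26, adjusted p = 0.035).

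In the ND2 module, Ndufs5 was the only one of 6 genes called in KO1 or KO3, and Ndufa1 and Ndufs5 rose in KO2. Ndufa1, encoded on chromosome X, had 1339, 1380 and 1379 normalized counts in KO1, 1984, 1538 and 1548 in KO2, and 1196, 1092 and 1129 in KO3, against 1068, 1440 and 1328 in WT. The log2 fold change was 0.40 ± 0.11 in KO2 (SE; limma adjusted p = 0.00843; 0.28 without WT replicate 1). In KO3 it was -0.16 (adjusted p = 0.269), and without that library -0.28 (adjusted p = 0.0282). Ndufa10, Ndufa11, Ndufc1 and Ndufc2 were not called in any clone with all libraries. Ndufa11 was called lower in KO2 without WT replicate 1 (-0.24, adjusted p = 0.0379).

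In the ND4 module, Ndufb11, also on chromosome X, rose in KO1 (log2 fold change 0.44, limma adjusted p = 0.0137; 0.25 without WT replicate 1) and KO2 (0.54, adjusted p = 0.00339; 0.35 without it) and was at 0.09 in KO3 (adjusted p = 0.601). It averaged 2408 ± 23.6 normalized counts in KO1, 2581 ± 104.5 in KO2 and 1898 ± 229 in KO3, against 1806 ± 372 in WT (SD, n = 3 each). Its exons share 117 bases with Rbm10 on the opposite strand, and without a known strand setting such reads cannot be told apart. Ndufb10 was called in KO3 alone (0.51, adjusted p = 0.00357; 0.33 without WT replicate 1).

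Ndufb4 was called in KO2 at 0.51 (limma adjusted p = 0.0201), but not without WT replicate 1 (0.32, adjusted p = 0.0741) or KO2 replicate 1 (0.36, adjusted p = 0.0957). The value of Ndufb4 is uncertain, since the processed pseudogene Ndufb4c shares 19.1% of the 31-base stretches of Ndufb4 and held more reads, with a mean of 1029 normalized counts against 375.3. Ndufb4c was itself higher in all 3 clones (0.46, 0.81 and 0.73). The sum of Ndufb4 and Ndufb4c was higher in KO1, KO2 and KO3 by 0.34, 0.73 and 0.63 (limma adjusted p = 0.0155, 6.9e-05 and 0.000276). Ndufb5 and Ndufb6 were not called in any clone. Ndufb5 was called lower without WT replicate 1 in KO2 (-0.20, adjusted p = 0.0158) and KO3 (-0.27, adjusted p = 0.00276), but with its neighbours on the chromosome subtracted it was called higher in KO2 (0.51, adjusted p = 0.0082), also without WT replicate 1 (0.29).

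In the ND5 module, at the tip of the membrane arm, Ndufb9 rose in all clones and Ndufb7 rose in KO2 (log2 fold change 0.49, limma adjusted p = 0.0146; 0.25 without WT replicate 1). Ndufab1, the acyl carrier protein that Ndufa6 and Ndufb9 hold, had 1680, 2185 and 2142 normalized counts in KO1, 1921, 1802 and 1122 in KO2, and 1932, 2164 and 2505 in KO3, against 919.6, 1589 and 1950 in WT. Its libraries spread widely within groups, and it was not called (0.49, 0.15 and 0.63; adjusted p = 0.131, 0.639 and 0.0562). Leaving out WT replicate 3 made it a call in KO1 (0.72, adjusted p = 0.0344) and KO3 (0.86, adjusted p = 0.0144). Ndufb8 was not called, and without WT replicate 1 it was lower in KO1 (-0.27, adjusted p = 0.00109) and KO3 (-0.23, adjusted p = 0.00357). Ndufb2 and Ndufb3 were not called with or without that library.

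Ndufa4, named as a complex I subunit and since assigned to complex IV, was higher in KO2 than in both other clones. It had 5390, 5178 and 5292 normalized counts in KO1, 8381, 7997 and 7822 in KO2, and 5822, 4947 and 5426 in KO3, against 4657, 6733 and 6365 in WT. The KO2 libraries lay above all the others. It rose in KO2 (log2 fold change 0.46 ± 0.11, SE; limma adjusted p = 0.0031). With all WT libraries it was not called in KO1 (-0.14, adjusted p = 0.298) or KO3 (-0.12, adjusted p = 0.397), and without WT replicate 1 it was called in all clones, lower in KO1 (-0.31, adjusted p = 0.00129), higher in KO2 (0.30, adjusted p = 0.0012) and lower in KO3 (-0.28, adjusted p = 0.00222). With Ndufa1, Ndufa9 and Ndufs3 it is one of 4 genes called in opposite directions in 2 clones without that library, as were 9.35% of all genes.

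**Figure D4:**
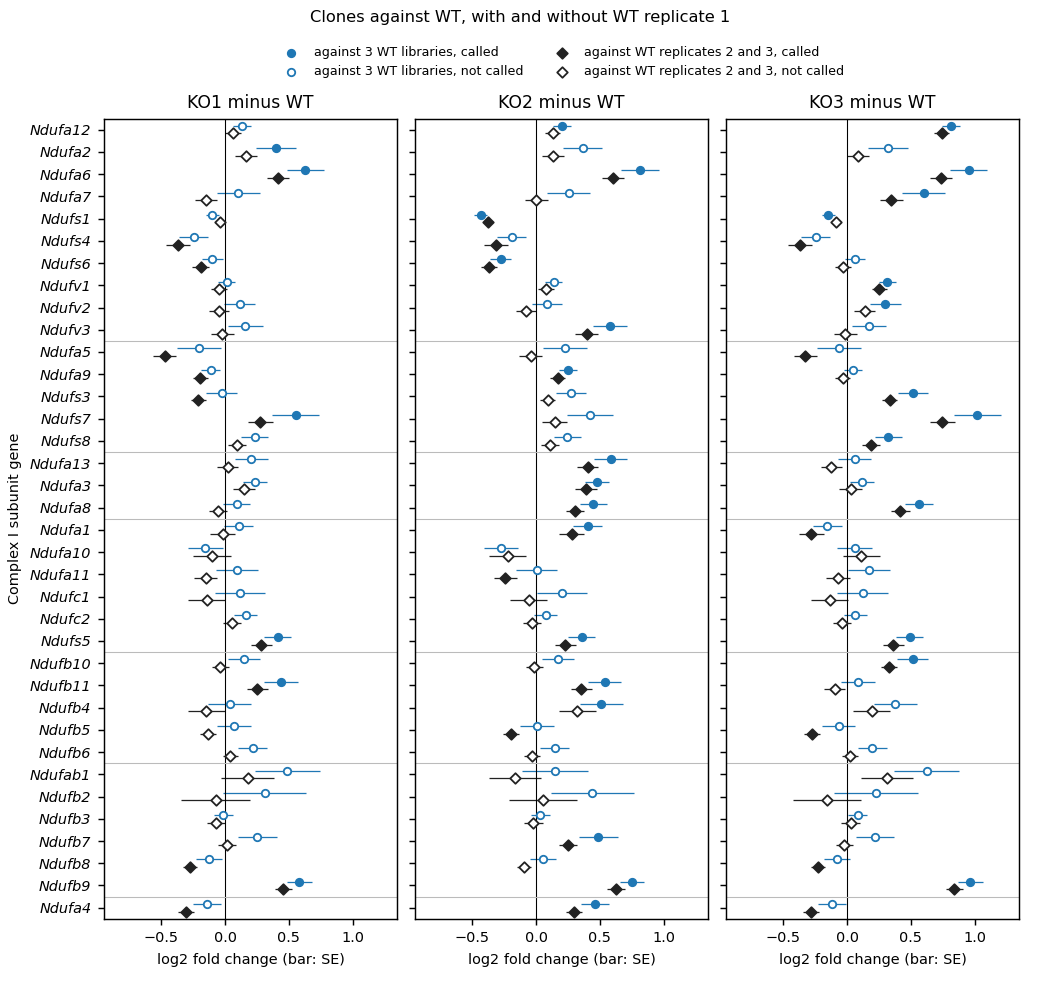
The log2 fold change of each of 36 complex I subunit genes in KO1, KO2 and KO3 against WT (x axis), with bars of 1 SE, for all 3 WT libraries (blue circles) and for WT replicates 2 and 3 only (black diamonds); filled symbols passed the adjusted p of 0.05. The diamonds lie left of their circles for all genes but Ndufs1 and Ndufa10, and Ndufa6, Ndufb9 and Ndufs5 are filled and right of 0 in every panel.

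The clones also differed from each other, in tests that do not take their direction from WT. Between KO2 and KO1, 6 of the 37 genes were higher and 1 lower in KO2 (all genes: 44.4% called). Between KO3 and KO1, 7 were higher and 1 lower in KO3 (43.6% called), and between KO3 and KO2, 6 were higher and 7 lower in KO3 (53.1% called). The called genes make up 18.9%, 21.6% and 35.1% of the 37. These tests share 1 estimate of the spread with WT, where the median SD of the 37 genes on the log2 scale was 0.286. It was 0.031, 0.081 and 0.118 in KO1, KO2 and KO3. A fit of only the 2 groups compared called 15, 14 and 19 of the 37 (all genes: 50.6%, 50.7% and 54.3%). Ndufa4 was higher in KO2 than in KO1 by 0.61 on the log2 scale (limma adjusted p = 0.000773) and lower in KO3 than in KO2 (-0.58, adjusted p = 0.000779). Ndufa12 was higher in KO3 than in KO1 (0.68, adjusted p = 9.35e-06) and KO2 (0.61, adjusted p = 1.35e-05), and Ndufs7 was higher in KO3 than in KO2 (0.60, adjusted p = 0.0143), a call lost without KO2 replicate 3 (adjusted p = 0.0558) or KO3 replicate 1 (adjusted p = 0.0528).

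Other core and accessory subunits also differed between clones. Ndufs1 was lower in KO2 than in KO1 (log2 difference -0.33, limma adjusted p = 0.000244) and higher in KO3 than in KO2 (0.29, adjusted p = 0.000512). Ndufa13, Ndufa3 and Ndufa1 were lower in KO3 than in KO2 (-0.53, -0.36 and -0.56; adjusted p = 0.00434, 0.00624 and 0.00121). Ndufs3 was higher in KO3 than in KO1 (0.55, adjusted p = 0.00266). Of the trio that rose everywhere, Ndufa6 and Ndufs5 were not called between any 2 clones in the main fit, and Ndufb9 was higher in KO3 than in KO1 (0.39, adjusted p = 0.00637). For Ndufa6 the log2 difference was 0.32 ± 0.15 (SE) between KO3 and KO1, and for Ndufs5 it was 0.08 ± 0.11. The difference of Ndufa6 was called in a fit of only those 2 groups, and with neighbours on the chromosome subtracted (0.37, limma adjusted p = 0.0272). With neighbours subtracted, Ndufs5 was called higher in KO2 than in KO1 (0.31, limma adjusted p = 0.041).

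Since the clones came from single cells, each gene was also set against its surroundings on the chromosome, by subtracting from its log2 value the median deviation of the 20 nearest tested genes. The log2 fold changes in KO1, KO2 and KO3 were then 0.63, 0.79 and 1.00 for Ndufa6, 0.58, 0.94 and 0.91 for Ndufb9 and 0.34, 0.65 and 0.50 for Ndufs5, all called. Over the 37 genes, the calls were then 6 rises and 1 fall in KO1 (46.4% of all genes called), 16 rises and 1 fall in KO2 (57.4%), and 13 rises and 1 fall in KO3 (49.5%), with medians of 0.15, 0.33 and 0.27. Genes that became called were Ndufb7 and Ndufb10 in KO1 (0.48 and 0.35), Ndufa7, Ndufb3, Ndufb5, Ndufb10 and Ndufs3 in KO2 (0.37 to 0.51), and in KO3, among others, Ndufb3, Ndufb7 and Ndufs6 (0.39, 0.47 and 0.46). With WT replicate 1 left out as well, there were 4 rises and 4 falls in KO1 (46.6% of all genes called). KO2 then had 13 rises and 1 fall (57.8%), and KO3 had 11 rises and 2 falls (50.6%). The medians were 0.02, 0.08 and 0.15, and Ndufs5 in KO1 was not called (0.21, limma adjusted p = 0.0858). In the fit with neighbours subtracted and all WT libraries, the KO3 values of Ndufa12 and Ndufs7 dropped to 0.40 and 0.43, both still called. Their neighbours on chromosome 10 thus moved the same way in KO3. The values that follow are also from that fit. The fall of Ndufs1 in KO2 was not called relative to its neighbours (-0.03, limma adjusted p = 0.728), nor was that of Ndufs6 (0.18), and Ndufa4, Ndufa8 and Ndufa9 lost their rise in KO2 (0.21, 0.18 and -0.08, none called). Ndufb11 was not called in KO1 (0.30, adjusted p = 0.14). Ndufv1 in KO3 turned to -0.11 (not called), and in KO1 and KO2 it was then called lower (-0.29 and -0.35). Several differences between clones were not called either. KO3 minus KO2 was 0.09 for Ndufa12 (limma adjusted p = 0.455), 0.19 for Ndufs7 (adjusted p = 0.193), 0.10 for Ndufs1 (adjusted p = 0.299), -0.09 for Ndufa13 (adjusted p = 0.627) and -0.21 for Ndufa4 (adjusted p = 0.188). KO2 minus KO1 was -0.11 for Ndufs1 (adjusted p = 0.279) and 0.32 for Ndufa4 (adjusted p = 0.0626).

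Levels per kilobase of exon ranged widely among the 37 genes, and their order was led by genes of different modules. Averaged over the 4 groups, Ndufa4 stood highest at 4465.8 normalized counts per kilobase, followed by Ndufa1 (3266.0), Ndufb9 (2767.0), Ndufb11 (2393.5) and Ndufa2 (2280.5). Ndufb2 (157.4), Ndufb4 (195.8) and Ndufab1 (265.3) stood lowest. The last 3 have long annotated exons or, for Ndufb4, a pseudogene with more reads, so their order rests on the annotation. Among the genes that rose in all clones, Ndufb9 was at rank 3, Ndufs5 at rank 18 (1123.4 normalized counts per kilobase) and Ndufa6 at rank 28 (655.4).

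**Figure D5:**
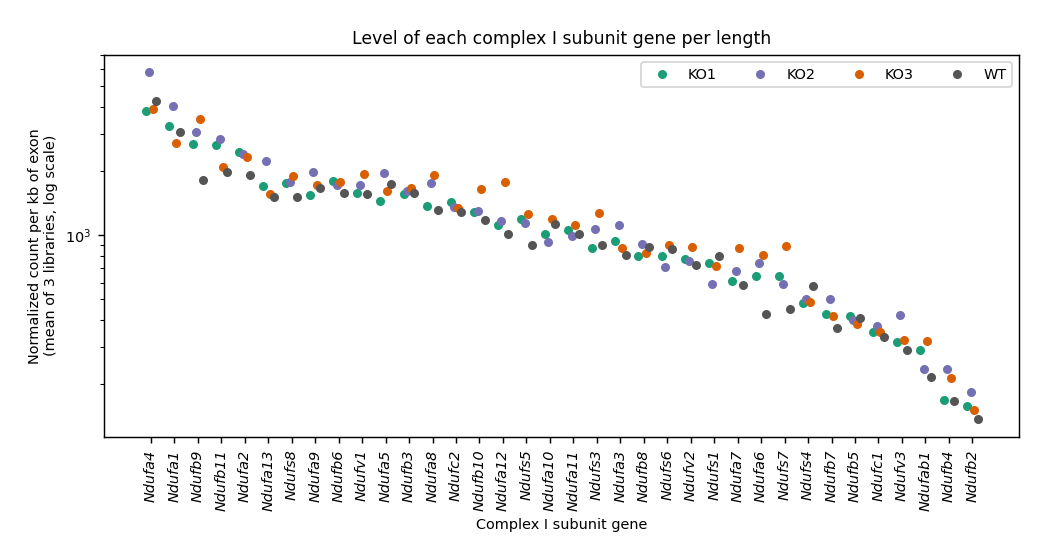
Normalized count per kilobase of annotated exon (y axis, log scale) for each of 36 complex I subunit genes, from highest to lowest mean, with 1 point per group for KO1, KO2, KO3 and WT (mean of 3 libraries). The spread between genes is far wider than the spread between groups of any 1 gene; at Ndufb9, Ndufa6 and Ndufs5 the WT point lies below all 3 clones.

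A gene that the rule leaves out was also higher in all 3 clones. Ndufb1-ps is annotated in GENCODE M21 as a non-coding transcript of a bidirectional promoter and is named for the membrane-arm subunit Ndufb1. It had 851.9, 929.8 and 870.5 normalized counts in KO1, 1277, 1242 and 947.7 in KO2, and 1494, 1218 and 1264 in KO3, against 383.4, 573.6 and 682.8 in WT. It was higher in all clones without overlap (log2 fold changes 0.73, 1.11 and 1.31; limma adjusted p = 0.00442, 0.000175 and 5.37e-05), and also without WT replicate 1 (0.50, 0.87 and 1.07).

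The mitochondrially encoded subunits of the complex were called in different directions. Of 7, 5 were tested, and mt-Nd4 and mt-Nd4l were not analysed here. The calls were 1 fall in KO1, 2 falls in KO2 and 1 rise in KO3 (all genes: 52.3%, 60.4% and 54.1% called). mt-Nd1, the subunit next to the ubiquinone site, fell in KO1 (log2 fold change -0.33, limma adjusted p = 0.00108) and KO2 (-0.35, adjusted p = 0.000514), mt-Nd2 fell in KO2 (-0.65, adjusted p = 1.72e-06), and mt-Nd5 rose in KO3 (0.32, adjusted p = 0.002). mt-Nd6 was not called (-0.78, -0.69 and 0.27), and its libraries spread widely in WT, at 7046, 3080 and 2196 normalized counts. Without WT replicate 1 it was called higher in KO3 (0.75, adjusted p = 0.00644). mt-Nd3 was listed at 0 in WT replicate 1, against 630.6 and 1323 normalized counts in the other WT libraries, and was not called in any clone.

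Of 18 assembly factors listed, 17 were tested. The calls were 3 rises and 4 falls in KO1, 6 rises and 3 falls in KO2, and 8 rises and 2 falls in KO3. Among all genes tested, 52.3%, 60.4% and 54.1% were called. Tmem126b, which helps to build the membrane arm, rose in all clones (log2 fold changes 0.28, 0.21 and 0.43; limma adjusted p = 0.00166, 0.00995 and 6.73e-05), also without WT replicate 1. Acad9, a partner of it in the same assembly complex, fell in all clones (-0.49, -0.62 and -0.35; adjusted p = 0.00493, 0.000825 and 0.0293), except that the KO3 fall was not called without WT replicate 1 (-0.28, adjusted p = 0.0877). Ndufaf2, which holds the place of Ndufa12 during assembly, fell in KO1 and KO2 (-0.56 and -0.55; adjusted p = 0.000132 and 0.000112) and was at -0.20 in KO3 (adjusted p = 0.0658). Ndufaf8 was called in KO1 (0.80, adjusted p = 0.0173), but not without WT replicate 1 (0.57, adjusted p = 0.0626).

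Of 11 regulators of nuclear genes for respiratory subunits, KO1 had 2 rises and 2 falls, KO2 had 2 rises and 6 falls, and KO3 had 4 rises and 1 fall. The share called among all genes tested was 52.3%, 60.4% and 54.1%. Ppargc1a, a coactivator that drives mitochondrial biogenesis, had 699.9, 654.3 and 652.2 normalized counts in KO1, 522.5, 506.0 and 560.9 in KO2, and 842.8, 896.8 and 856.6 in KO3, against 99.96, 69.37 and 68.64 in WT. The groups were far apart (log2 fold changes 3.08, 2.75 and 3.45; limma adjusted p = 1.19e-09, 3.16e-09 and 3.79e-10). Its relative Pprc1 fell in all clones (-0.52, -0.93 and -0.52; adjusted p = 2.05e-05, 8.97e-08 and 1.67e-05). Esrra, which encodes an oestrogen-related receptor, was called higher in all clones (0.49, 0.34 and 0.34; adjusted p = 0.00279, 0.0183 and 0.02), but in KO1 alone without WT replicate 1. Tfam, which packages mitochondrial DNA, was called in KO2 alone (-0.34, adjusted p = 0.0377), and not without WT replicate 1 (-0.17, adjusted p = 0.135), where it was instead called higher in KO3 (0.48, adjusted p = 0.000965).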

How the data were processed

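Per the labels' protocols, ribosomal RNA of the cytoplasm was removed from total RNA and priming was by random hexamers. The tools named in the submitters' processing notes are Salmon 0.14.1, DESeq2 1.24.0 and cutadapt, with GRCm38 as genome build. Their settings and the strand of counting were not given in the sources used here. The authors deposited normalized counts, a signal that is never negative. Within 0.02, 99.95% to 99.99% of each library's values are whole multiples of 1 step. Whole counts were therefore recovered, and taken as read numbers, for edgeR 4.0.16 and DESeq2 1.42.0 as alternatives. From the authors' deposited comparison tables, the log2 fold changes and p-values were used for calls; their standard errors (recorded as a score) were made by the authors and are not printed. The main test was limma 3.58.1 (R 4.3.3, trended prior variance) on log2(value + 1), 4 groups in 1 fit, two-sided. The fit was tested on simulated data.

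Alternatives were pseudocounts of 0.5 and 5, no filter, quantile and TMM scaling, a replicate block, only the 2 groups compared, each library left out, neighbours subtracted and copies summed (copies share at least 5% of a gene's 31-base stretches). The genes, lists and tests were chosen with earlier results of these data known. By rule, values of every library are given for genes called alike in all clones or in opposite directions in 2 clones and for each clone's largest rise and fall; Ndufa12, Ndufs4, Ndufab1, Ndufb2, Ndufb1-ps and Ppargc1a were added after their values were seen. From each other list except the cell type markers, up to 4 genes with the smallest largest-of-3 adjusted p are named, and mt-Nd5 beside them after its values were seen. The cell type markers named were chosen with their values known, not by this rule. Of the 37 genes, 1 is included in fits and counts but its own values are not reported here, and figures of the whole set show 36. No column was left unused (0).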

Additional observations from a re-analysis of the deposited data

Results flagged for a closer look

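Complex I genes were picked out here where 2 clones moved in opposite directions from WT (both called without WT replicate 1) and the difference between those clones was itself called by limma. Ndufa4 differed by 0.61 on the log2 scale between KO2 and KO1 and by -0.58 between KO3 and KO2, with the KO2 libraries above all others. Ndufa9 differed by 0.36 between KO2 and KO1, Ndufs3 by 0.55 between KO3 and KO1, and Ndufa1 by -0.56 between KO3 and KO2. With neighbouring genes subtracted, the differences of Ndufa4 were 0.32 (limma adjusted p = 0.0626) and -0.21 (adjusted p = 0.188) and that of Ndufa9 was 0.063 (adjusted p = 0.473), none called, and neither gene was called in KO2 against WT. Ndufs3 and Ndufa1 were still called, at 0.33 (limma adjusted p = 0.0308) and -0.36 (adjusted p = 0.0202). The clones share 1 set of WT libraries, and no group is large enough for a test of single libraries that lie apart.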

How the results depend on the processing

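Counts of called complex I genes were 6, 16 and 13 in KO1, KO2 and KO3 against WT, 7 between KO2 and KO1, 8 between KO3 and KO1 and 13 between KO3 and KO2. Leaving out each library gave 4 to 12, 15 to 20, 10 to 17, 4 to 6, 5 to 7 and 9 to 11. For KO1 against WT, the 12 came without WT replicate 1. A fit of only the 2 groups compared gave 10 for KO2 against WT, 15 for KO2 and KO1 and 14 for KO3 and KO1. KO2 and KO1 differed in 12 genes after quantile scaling and 11 each by edgeR and DESeq2, and KO3 and KO2 in 8 with neighbours subtracted. Nothing in the labels says that replicate numbers pair the libraries. Correlations of deviations were -0.221 to 0.123 over 18 same-numbered pairs and -0.131 to 0.236 over 36 pairs with different numbers. The replicate block gave 5, 16, 12, 6, 7 and 11.

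Ndufa6 and Ndufb9 kept their calls against WT under all 18 alternatives in each clone; Ndufs5 lost KO1 as stated in the results and KO2 with only the 2 groups compared (adjusted p = 0.0564). These values turned sign with a call in at least 1 of the fits, and the cause was not tested. Without WT replicate 1, in KO2 against WT: Ndufa11 -0.24 and Ndufb5 -0.20 (their ranges over libraries left out reach up to 0.14 and 0.12, without WT replicate 3). With neighbours subtracted, against WT: Ndufa9 -0.083 and Ndufs6 0.18 in KO2, Ndufc2 -0.29, Ndufs1 0.067 and Ndufs8 -0.010 in KO3, and Ndufv1 -0.29, -0.35 and -0.11 in KO1, KO2 and KO3. Between clones: Ndufa9 0.19 (KO3 and KO2), Ndufb11 0.078 (KO3 and KO1) and Ndufs5 0.31 (KO2 and KO1). With neighbours subtracted and WT replicate 1 left out (a setting chosen after seeing the data): Ndufa2 -0.050 and Ndufc2 -0.25 in KO1, Ndufa9 -0.14 and Ndufs6 0.049 in KO2, Ndufb6 -0.24, Ndufc2 -0.35, Ndufs1 0.077 and Ndufs8 -0.11 in KO3, and Ndufv1 -0.28, -0.34 and -0.10 in KO1, KO2 and KO3. Of 3885 values of single genes, 3594 were called or not called as before (values not called in either fit may have turned sign), 142 lost a call, 125 gained one, and 24 turned sign with a call in at least 1 of the fits.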

Other observations

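Ndufb2 and Ndufab1 varied widely between libraries of 1 group. Ndufb2 had 818.7, 918.2 and 939.4 normalized counts in KO1, 1292, 1206 and 594.3 in KO2, and 816.8, 712.5 and 1024 in KO3, against 421.0, 842.8 and 1045 in WT. Both genes were low in KO2 replicate 3 and in WT replicate 1, and both have long annotated exons (5628 and 6883 bases). KO2 replicate 3 lay below the mean of the other KO2 libraries for 32 of the 37 complex I genes (45.8% of all genes tested) and below both of them for 27. KO3 replicate 2 lay below the mean of the other KO3 libraries for 37 of 37 (50.0% of all genes tested) and below both of them for 34.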
